A study of Mus musculus with 7 samples.

Results

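Transcripts of mast cells, basophils and eosinophils were examined in mouse leukemia cells exposed to BRD7116, a compound given by its code name alone. The set held 10 genes, Prg2, Hdc, Epx, Cpa3, Gata2, Ms4a2, Fcer1a, Fcer1g, Mcpt8 and Il5ra. It comprised every probe on the array whose platform annotation carries one of these symbols, which gave 12 probes of 25697 and 10 genes of 16593. Cpa3 had 3 probes and each other gene had 1, and each probe was kept apart. The genes were selected on their levels, their detection p-values and their difference between compound and vehicle on these same arrays, so those values are given as a description and without a test.

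The cells were freshly isolated, labelled as leukemia stem cells, and kept in suspension for 6 h in medium with serum. The treated group received 5 µM BRD7116 in 0.2% DMSO and was assayed on 5 arrays. The vehicle group received 0.2% DMSO alone and was assayed on 2 arrays. The labels give no strain, genotype, age or oncogene for the mice, and do not say that replicates came from separate cultures or animals, so the spread between arrays may be technical. The platform was the Illumina MouseRef-8 v2.0 BeadChip, loaded with labelled copies of total RNA, which reports a brightness for each probe and a detection p-value against negative control probes. A probe is called detected on an array here where that p-value was under 0.05. By its title the study sought inhibitors of leukemia stem cells, and compound against vehicle is the only comparison it holds.

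The 3 chips were unequal. Chip 1, which held BRD7116 replicate 1 and DMSO replicate 2, was dim, with 4585 and 4412 detected probes, against 6749 to 8451 on the other 5 arrays. On chip 2 were BRD7116 replicate 2 with DMSO replicate 1, while BRD7116 replicates 3, 4 and 5 shared chip 3. The first principal component of the normalized values, with 61.0% of the variance, separated both arrays of chip 1 from the other 5, so differences are also given within chips 1 and 2. Of the genes used to check the cell label, the leukemic self-renewal genes Meis1 and Hoxa9 and the progenitor granule genes Mpo and Elane were each detected on all 7 arrays. The probes of the progenitor markers Cd34 and Flt3 were detected on none.

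Mast cells, basophils and eosinophils develop from bone marrow progenitors and store mediators in granules, which they release when they are activated. On mast cells and basophils the trigger is the high-affinity IgE receptor, which joins an alpha chain that binds IgE (Fcer1a), a beta chain that amplifies the signal (Ms4a2) and a pair of gamma chains that pass it on (Fcer1g). Eosinophils depend on interleukin 5, whose receptor alpha chain is Il5ra. Gata2, a zinc finger transcription factor of blood stem and progenitor cells, is needed to form mast cells and basophils. Hdc, which makes histamine, is also known in immature myeloid cells, and Fcer1g also serves the receptors for IgG on most myeloid cells.

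The promoters of 9 of the 10 genes matched the RefSeq table of build GRCm38.p6, and Prg2 had no entry. They are shown so that the promoters of detected and undetected members can be read side by side, with the motif of GATA factors, the family of Gata2, marked. GATA factors bind sites that contain GATA, and AGATAA was searched on both strands, so that TTATCT also counts and neither overlaps another motif searched, from 250 bases before to 50 bases after each start. It was found for 4 of the 9 genes, Cpa3, Ms4a2, Fcer1a and Il5ra, and for 12.7% of the 27025 genes in the table. The match is a description of the letters and not of binding. Only AGATAA was searched, so other stretches that contain GATA, such as tgatag in the Hdc window, are not marked or counted. The 250 bases before the start are given 5′ to 3′ for Hdc, whose probe was detected on all arrays and whose window held no match, and for Cpa3, Fcer1a and Ms4a2, whose windows held 1, 1 and 3 matches, in capitals. Hdc lies at chr2:126618679-126618928 on the minus strand, Cpa3 at chr3:20242182-20242431 on the minus strand, Fcer1a at chr1:173227230-173227479 on the minus strand and Ms4a2 at chr19:11623720-11623969 on the minus strand.
Hdc: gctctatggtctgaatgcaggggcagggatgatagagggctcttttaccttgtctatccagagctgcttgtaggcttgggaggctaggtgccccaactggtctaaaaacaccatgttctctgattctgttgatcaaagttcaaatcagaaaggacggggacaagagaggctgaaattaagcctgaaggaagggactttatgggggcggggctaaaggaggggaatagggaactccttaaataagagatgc
Cpa3: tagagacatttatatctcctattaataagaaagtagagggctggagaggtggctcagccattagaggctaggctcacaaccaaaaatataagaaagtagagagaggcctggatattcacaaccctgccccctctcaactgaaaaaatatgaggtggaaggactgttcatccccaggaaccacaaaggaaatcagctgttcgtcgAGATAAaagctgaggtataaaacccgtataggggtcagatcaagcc
Fcer1a: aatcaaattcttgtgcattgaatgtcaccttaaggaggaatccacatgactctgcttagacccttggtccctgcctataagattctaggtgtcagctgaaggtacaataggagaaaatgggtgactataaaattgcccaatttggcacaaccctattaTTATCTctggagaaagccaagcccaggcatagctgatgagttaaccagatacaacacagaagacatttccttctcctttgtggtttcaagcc
Ms4a2: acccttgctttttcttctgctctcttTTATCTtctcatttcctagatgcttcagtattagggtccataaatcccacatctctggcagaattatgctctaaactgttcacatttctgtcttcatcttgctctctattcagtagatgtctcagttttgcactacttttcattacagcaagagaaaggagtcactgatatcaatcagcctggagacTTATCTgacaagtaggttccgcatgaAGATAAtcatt
In Cpa3 the match began 46 bases before the start and in Fcer1a 92 bases before it.

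Of the 10 genes, Prg2, Hdc and Gata2 were detected on all 7 arrays. Epx, Cpa3, Fcer1g and Mcpt8 were detected on some arrays by at least 1 probe. Ms4a2, Fcer1a and Il5ra were detected on none. By the same count, 15.4% of the 16593 named genes were detected on all 7 arrays and 50.5% on none. Of the receptor chains that mark these cells, the 3 undetected genes were not above background, so detection bears out the label for part of the set only. A probe's brightness depends on the probe as well as the transcript, so levels are compared between arrays and not between genes. The RNA was from bulk cells, in which a change in the number of cells of a type and a change in RNA per cell cannot be told apart.

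**Figure D1:**
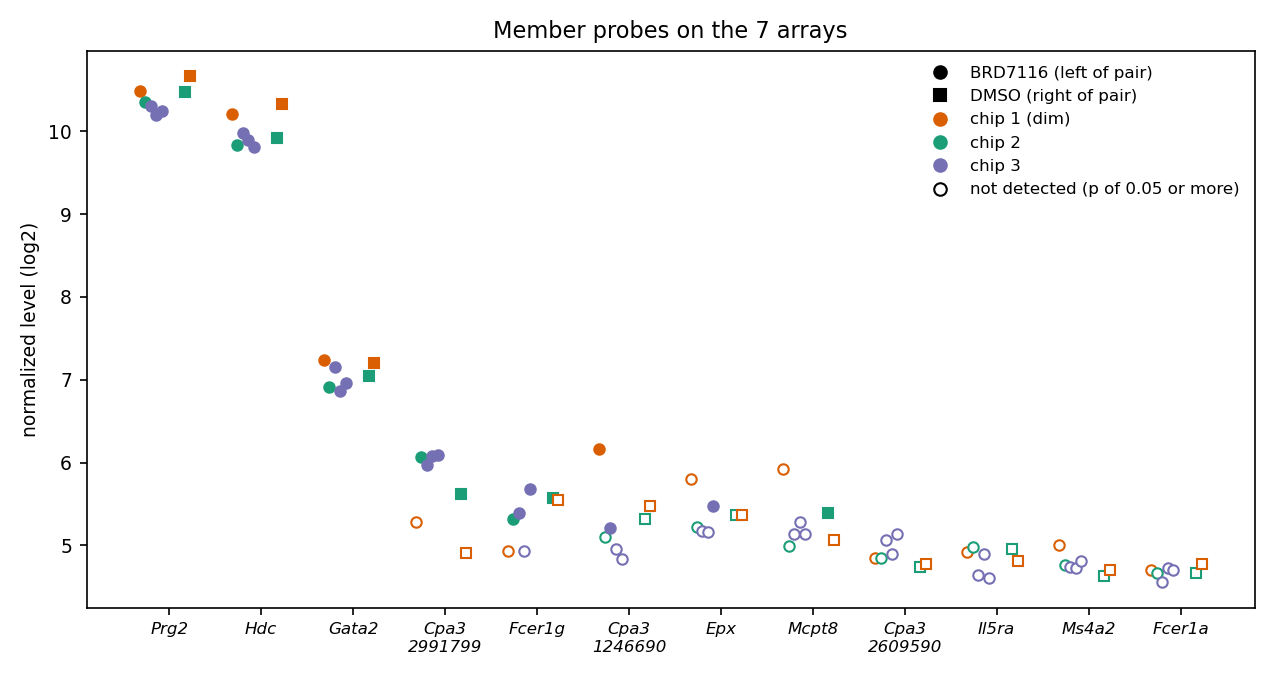
Normalized log2 level of each of the 12 member probes (x axis; the number under Cpa3 is its probe) on the 7 arrays, with the 5 BRD7116 arrays as circles and the 2 DMSO arrays as squares, coloured by chip and open where the probe was not detected. Prg2, Hdc and Gata2 are filled on all 7 arrays, and Ms4a2, Fcer1a, Il5ra and Cpa3 probe ILMN_2609590 are open on all. Heights of different probes are not comparable.

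Among the granule proteins, Prg2, the major basic protein of eosinophil granules, had deposited intensities of 624, 2548, 2235, 1388 and 2776 on the BRD7116 arrays and 2054 and 705 on the DMSO arrays. The low values of 624 and 705 were those of the dim chip. After normalization the level of Prg2 was 10.49, 10.35, 10.30, 10.20 and 10.25 on the log2 scale with BRD7116 and 10.47 and 10.67 with DMSO. It was brighter than 98.9% to 99.3% of all probes on its array, and its detection p was 0 throughout, which means that it was brighter than every negative control. The groups overlapped, since BRD7116 replicate 1 at 10.49 lay just above DMSO replicate 1 at 10.47. Prg2 averaged 10.32 ± 0.11 with BRD7116 (SD, n = 5) and 10.57 ± 0.14 with DMSO (SD, n = 2), a difference of -0.25 with a standard error of 0.17 and a 95% interval of -0.65 to 0.14.

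Epx, the eosinophil peroxidase, is stored in the same granules. Its level was 5.81, 5.22, 5.18, 5.16 and 5.48 with BRD7116 and 5.37 on both DMSO arrays. It was detected on BRD7116 replicate 5 alone, with a detection p of 0.00125, and on the 6 others the p was 0.0564 to 0.143. None of those p-values passed the limit, and no fold is given because the bound between the groups was under 1.

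Cpa3, the carboxypeptidase of mast cell granules, was measured by 3 probes that disagreed. Probe ILMN_2991799 had levels of 5.28, 6.07, 5.97, 6.08 and 6.09 with BRD7116 and 5.62 and 4.90 with DMSO. It was detected on 5 arrays and missed on both arrays of the dim chip, which also had the lowest levels, 5.28 and 4.90. The groups overlapped only through BRD7116 replicate 1. The mean was 5.90 ± 0.35 with BRD7116 (SD, n = 5) and 5.26 ± 0.50 with DMSO (SD, n = 2), a difference of 0.64 with a standard error of 0.29 and a 95% interval of -0.03 to 1.30. This was the only one of the 5 member probes detected in both groups whose mean was higher with BRD7116. With median scaling, however, Hdc and Gata2 also lay above the median of all probes, by 0.07 and 0.18, and Prg2 was level with it, at 0.00.

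Probe ILMN_1246690 of Cpa3 had levels of 6.16, 5.10, 5.21, 4.96 and 4.83 with BRD7116 and 5.32 and 5.47 with DMSO. It was detected on BRD7116 replicates 1 and 3, with detection p-values of 0.0338 and 0.0489, and on neither DMSO array. Its mean was nonetheless lower with BRD7116, at 5.25 against 5.40 with DMSO, and no bound above 1 could be set. Probe ILMN_2609590 was detected on no array, with levels of 4.84 to 5.14 with BRD7116 and 4.74 to 4.77 with DMSO. The 3 probes carry the same RefSeq accession in the annotation, and their sequences were not used here. The Cpa3 difference therefore rests on 1 probe of 3.

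Mcpt8, a serine protease of mouse basophil granules, had levels of 5.92, 5.00, 5.14, 5.28 and 5.13 with BRD7116 and 5.39 and 5.07 with DMSO. It was detected on DMSO replicate 1 alone, at a detection p of 0.0489, just inside the limit of 0.05. BRD7116 replicate 1 had a higher normalized level, 5.92, and a detection p of 0.0551, just outside it. The limit in normalized units differed between chips, since the dimmest detected probe stood at 6.00 and 6.07 on the dim chip and at 5.21 to 5.39 on the other 5 arrays.

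Hdc, histidine decarboxylase, had levels of 10.21, 9.83, 9.98, 9.89 and 9.82 with BRD7116 and 9.92 and 10.33 with DMSO. It was brighter than 98.5% to 99.1% of all probes on its array, with a detection p of 0 on all 7. The 2 arrays of the dim chip were the highest of their groups, at 10.21 and 10.33, and the groups overlapped. Hdc averaged 9.95 ± 0.16 with BRD7116 (SD, n = 5) and 10.13 ± 0.29 with DMSO (SD, n = 2). The difference was -0.18 with a standard error of 0.20 and a 95% interval of -0.63 to 0.28, smaller than the spread between the 2 DMSO arrays.

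Among the receptors, the alpha and beta chains of the IgE receptor lay at background. Fcer1a had levels of 4.55 to 4.73 with BRD7116 and 4.67 to 4.77 with DMSO, with detection p-values of 0.712 to 0.897 over all 7 arrays. Ms4a2 had levels of 4.73 to 5.01 with BRD7116 and 4.62 to 4.71 with DMSO, with detection p-values of 0.401 to 0.85. Il5ra had levels of 4.60 to 4.98 with BRD7116 and 4.82 to 4.95 with DMSO, with detection p-values of 0.307 to 0.857. For these 3 genes the arrays give no level and no difference.

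Fcer1g, the shared gamma chain, had levels of 4.93, 5.32, 5.38, 4.93 and 5.68 with BRD7116 and 5.57 and 5.55 with DMSO. It was detected on BRD7116 replicates 2, 3 and 5 and on DMSO replicate 1. The mean was 5.25 ± 0.32 with BRD7116 (SD, n = 5) and 5.56 ± 0.01 with DMSO (SD, n = 2), and BRD7116 replicate 5 lay above both DMSO arrays. The difference was -0.31 with a standard error of 0.24 and a 95% interval of -0.86 to 0.24. The 2 lowest arrays, BRD7116 replicates 1 and 4 at 4.93, were among the 3 on which the probe was not detected.

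Gata2, the transcription factor, had levels of 7.24, 6.91, 7.15, 6.86 and 6.96 with BRD7116 and 7.04 and 7.20 with DMSO. It was detected on all 7 arrays, at a detection p of 0 on 6 of them and of 0.00376 on DMSO replicate 2. The groups overlapped fully. Gata2 averaged 7.02 ± 0.16 with BRD7116 (SD, n = 5) and 7.12 ± 0.11 with DMSO (SD, n = 2), a difference of -0.09 with a standard error of 0.18 and a 95% interval of -0.52 to 0.33.

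For the 3 probes that were detected everywhere the spread over the arrays can also be given. Over the 7 arrays their SD was 0.16 for Prg2, 0.20 for Hdc and 0.15 for Gata2, against a median of 0.22 over the 3088 probes detected on all arrays. Those probes were not matched for brightness, and the members were chosen with these levels known, so the SDs are a description. As fold changes, the intervals of the BRD7116 over DMSO ratio were 0.64 to 1.10 for Prg2, 0.64 to 1.21 for Hdc and 0.70 to 1.25 for Gata2.

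Within chips, the direction was the same in both for 4 of the 5 probes. Prg2 differed by -0.18 within chip 1 and -0.12 within chip 2, and Hdc by -0.12 and -0.09. Fcer1g differed by -0.62 and -0.25, and Cpa3 probe ILMN_2991799 by 0.38 and 0.45. Gata2 had 0.04 within chip 1 and -0.14 within chip 2. Each of these values compares 1 array with 1 array and has no replicate. Leaving out DMSO replicate 2, the control on the dim chip, changed Cpa3 to 0.32, Hdc to 0.02, Gata2 to -0.02 and Prg2 to -0.17. Leaving out DMSO replicate 1 gave 0.99 for Cpa3, -0.38 for Hdc, -0.17 for Gata2 and -0.35 for Prg2, in a setting in which the median of all probes was 0.15.

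**Figure D2:**
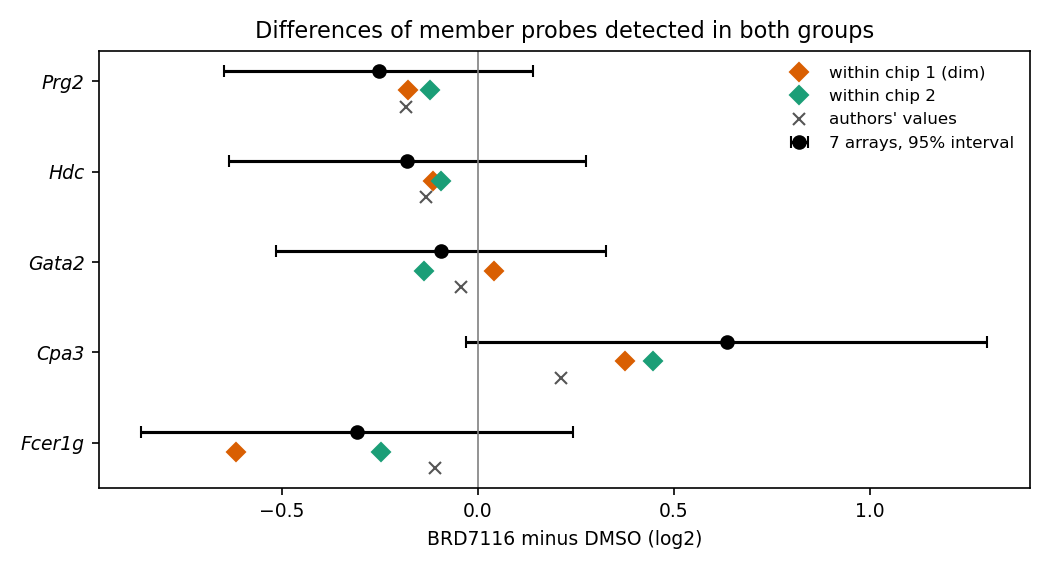
Difference BRD7116 minus DMSO on the log2 scale for the 5 member probes detected in both groups, with the 7-array estimate and its 95% interval from limma in black, the within-chip values as diamonds and the authors' processed values as crosses. Cpa3 stands for probe ILMN_2991799. Of the 7-array estimates only that of Cpa3 lies above 0. With median scaling Hdc and Gata2 did too, relative to all probes, and Prg2 was at 0.00. The members were chosen with this contrast known, so the intervals are a description and not a test.

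In the fit over all probes, 6 of the 12 member probes passed the filter of detection on at least 2 arrays, and 0 of these 6 passed an adjusted p of 0.05 in limma. Over all 8613 probes tested, 0 passed, or 0% called, and 577 had an unadjusted p under 0.05, or 6.7%, of which 3.29% were higher and 3.41% lower with BRD7116. None of the 6 did. BRD7116 and DMSO arrays did not overlap for 10.8% of the probes tested, 5.7% higher and 5.12% lower with BRD7116, and for 0 of the 6. Of the 6 probes left out, Ms4a2 and Cpa3 probe ILMN_2609590 had all BRD7116 arrays above both DMSO arrays, though neither was detected on any array. The members were chosen with this contrast known, so nothing is read from these counts. Among the 8613 probes the median difference was 0.06, and the median half-width of the 95% interval was 0.58.

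Profiles most like those of Prg2 and Hdc were sought among the 3088 probes detected on all arrays, as the root mean square difference of the log2 levels after each probe's mean over the 7 arrays was taken off. Nearest to Prg2 were Dnajc2 at 0.0319, Luc7l at 0.0476 and Thoc5 at 0.0480, where the median probe was at 0.239. Nearest to Hdc were Tpd52 at 0.0422, Tlk1 at 0.0491 and Ganab at 0.0507, where the median probe was at 0.250. Hdc came in place 121 and Gata2 in place 162 for Prg2, and Gata2 in place 73 for Hdc, of 3087 probes. Probes with a small spread over the arrays lie close on this measure whatever their pattern. These likenesses rest on 7 arrays that share 3 chips and are a description.

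Other genes of these cells were taken from lists written for the cell types and pathways. Among 20 further mast cell genes with a probe, Srgn alone was detected on all 7 arrays and 14 on none, against 50.5% of all named genes on none. The 14 include the protease genes Cma1, Mcpt4 and Tpsb2, the histamine transporter Slc18a2 and the mast cell factor Mitf. The protease genes Mcpt1 and Tpsab1, with Mrgprb1, Hs3st1 and Ltc4s, were detected on some arrays. Of these, Mcpt1 and Hs3st1 alone passed the filter of detection on at least 2 arrays. Among 10 basophil genes, Osm alone was detected on all arrays and 6 on none, Il4, Il13 and the protease Prss34 among them. Among 9 eosinophil genes, Prg3 alone was detected on all arrays and 3 on none, the eotaxin receptor Ccr3 among them. Ear6, Ear10, Siglecf, Alox15 and Il5 were detected on some, and of these Ear6 and Il5 alone passed the filter. All 7 primary granule genes of neutrophil and monocyte progenitors that had a probe were detected on all arrays. Whether RNA of a few mast cells, basophils or eosinophils contributed to the members was not tested.

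**Figure D3:**
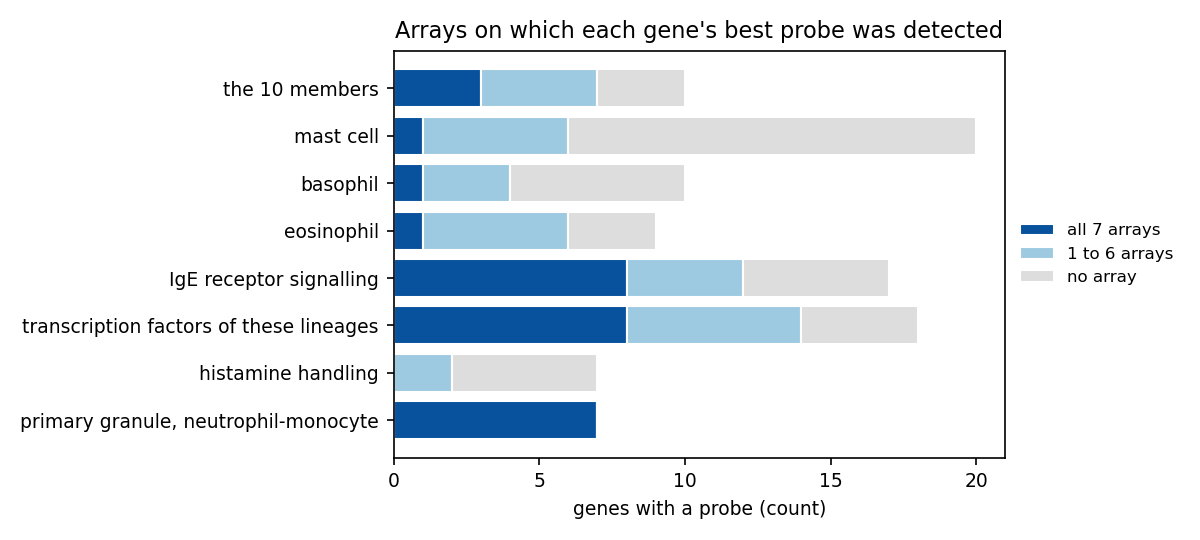
Number of genes with a probe (x axis) in the set of 10 members and in 7 further lists, split by whether the best probe of a gene was detected on all 7 arrays, on 1 to 6 or on none. The mast cell list has 14 of 20 genes on no array, and the primary granule list has 7 of 7 on all.

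Prg3, a close relative of Prg2 in eosinophil granules, had levels of 6.84, 6.72, 6.96, 6.59 and 6.71 with BRD7116 and 7.05 and 6.70 with DMSO. The groups overlapped, and the difference was -0.11 with a standard error of 0.19. Ear6, an eosinophil ribonuclease, had -0.41 with a standard error of 0.44 and Il5, the eosinophil growth factor, 0.32 with a standard error of 0.45, each detected on 2 arrays, and Ear6 turned to 0.05 with chip as a block. Osm, an inflammatory cytokine made by activated myeloid cells, had 0.07 (standard error 0.18), and Il6, another, had 0.25 (standard error 0.39). Srgn, the proteoglycan core that holds granule proteases and histamine, had 2 probes that disagreed. The brighter, ILMN_2722732, had levels of 6.32 to 6.83 with BRD7116 and 7.04 and 6.51 with DMSO, a difference of -0.13 (standard error 0.22). The dimmer, ILMN_2751527, differed by 0.66 (standard error 0.38), which became -0.16 without DMSO replicate 2. Of the remaining mast cell genes tested, the protease Mcpt1 had 0.18 (standard error 0.50) and the heparan sulfate enzyme Hs3st1 -0.23 (standard error 0.20). The median difference was 0.02 over the 4 mast cell probes tested, 0.16 over the 2 basophil probes and -0.11 over the 3 eosinophil probes, and 0 of them passed by limma.

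Downstream of the IgE receptor, 8 of 17 signalling genes with a probe were detected on all arrays, and 15 probes were tested. By limma 0 of them passed in either direction, 11 had means above and 4 had means below those with DMSO, and the median difference was 0.06, as over all probes. Lat2, an adaptor that links the receptor to downstream enzymes, had levels of 9.16, 9.24, 9.45, 9.02 and 9.30 with BRD7116 at probe ILMN_3143483, against 8.72 and 8.45 with DMSO. All 5 BRD7116 arrays lay above both DMSO arrays. The difference was 0.65 with a standard error of 0.19, and the adjusted p from limma was 0.685 (unadjusted 0.00792). It was 0.71 within chip 1 and 0.52 within chip 2. Both probes of Pik3r1, a regulatory subunit of PI3 kinase, had all 5 BRD7116 arrays below both DMSO arrays. They were at -0.30 (standard error 0.18) and -0.33 (standard error 0.17), with adjusted p-values of 0.697 and 0.685 by limma. Over all probes tested, 5.7% lay above both DMSO arrays in this way and 5.12% below. The second Lat2 probe, ILMN_2473562, detected on 4 arrays, gave 0.27 (standard error 0.30). The phosphatase gene Ptpn6 had -0.06 (standard error 0.16), the kinase gene Btk 0.26 (standard error 0.19) and the exchange factor gene Vav1 0.01 (standard error 0.20).

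Of the IgG receptors, Fcgr1, the high-affinity receptor that uses the Fcer1g chain, was detected on no array. Fcgr3, the low-affinity activating receptor that also uses it, was detected on all 7 and had levels of 7.98, 8.39, 8.73, 8.53 and 8.49 with BRD7116 and 8.04 and 7.94 with DMSO. BRD7116 replicate 1, on the dim chip, lay between the 2 DMSO arrays and the other 4 lay above both. The difference was 0.43 with a standard error of 0.22, and was 0.04 within chip 1 and 0.36 within chip 2. Fcgr4, another activating receptor, had 0.30 with a standard error of 0.39. With DMSO replicate 2 left out, Fcgr4 was at -0.56. Fcgr2b, the inhibitory receptor, which does not use the gamma chain, had 0.28 (standard error 0.24) at its brightest probe, with -0.24 within chip 1 and 0.42 within chip 2, and 0.38 (standard error 0.28) at the next. In the fit over 7 arrays all 5 tested probes of this list had a higher mean with BRD7116, the median was 0.30, and 0 passed by limma. Of all 8613 probes tested, 4936 had a higher mean.

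Among cytokine receptors and their signalling genes, 0 passed by limma. Of 7 tested probes 5 had a lower mean with BRD7116, and the median was -0.16. Il3ra, the interleukin 3 receptor alpha chain, differed by -0.42 (standard error 0.27), Jak2, the kinase that serves it, by -0.47 (standard error 0.32) and Stat5a, its transcription factor, by -0.50 (standard error 0.25). For these 3 genes DMSO replicate 2 on the dim chip was the highest of the 7 arrays, at 8.17, 7.41 and 7.54. Without it the differences were -0.05, -0.06 and -0.08. Csf2ra, the GM-CSF receptor alpha chain, had -0.16 (standard error 0.40), and 0.13 when BRD7116 replicate 1 was left out.

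Of 18 transcription factor genes of these lineages, 8 were detected on all arrays, and 13 probes were tested, with 7 higher and 6 lower means, a median of 0.01 and 0 past the threshold by limma. Lmo2, a partner of GATA factors, had 0.14 (standard error 0.19), Cebpe, which drives granule gene expression in granulocytes, 0.13 (standard error 0.16), Cebpb 0.26 (standard error 0.31) and Xbp1, which eosinophils need to form, -0.21 (standard error 0.24). With chip as a block Cebpb turned to -0.18 and Lmo2 to -0.01. Of 7 genes of histamine transport, breakdown and sensing, Hnmt, which inactivates histamine, was the only one tested, at -0.99 (standard error 0.52). Its level was 6.38 on BRD7116 replicate 1 and 5.00 to 5.14 on the other BRD7116 arrays, and 5.44 and 7.24 on the DMSO arrays. The difference was -1.85 without DMSO replicate 1 and -0.09 without DMSO replicate 2. Genes of granule packing and release, part of the machinery of all secretory blood cells, had a median of 0.12 over 21 tested probes, 14 higher and 7 lower, with 0 past the threshold by limma. Cd63 had 3 tested probes that disagreed, at 0.12 (standard error 0.22) for the brightest, -0.36 (standard error 0.26) for ILMN_3128907 and 0.82 (standard error 0.70) for ILMN_3052430. The brightest turned to -0.04 without DMSO replicate 2 and with chip as a block. Among the others, Lamp1 had -0.09 (standard error 0.19), Stxbp2 0.15 (standard error 0.19) and Vamp8 0.09 (standard error 0.17).

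**Figure D4:**
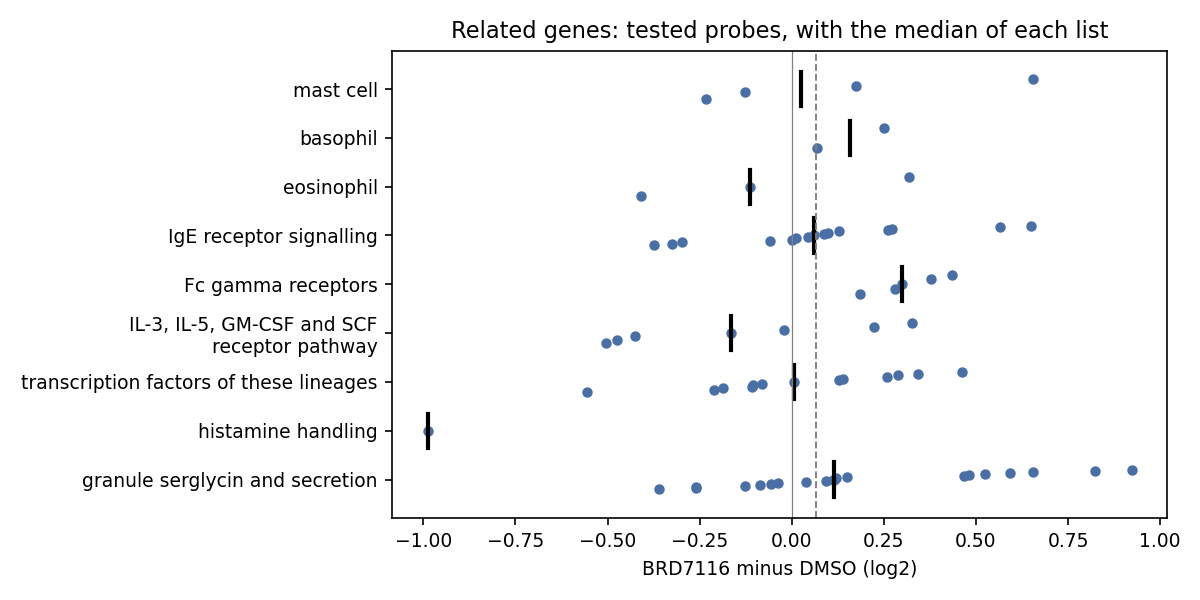
Difference BRD7116 minus DMSO on the log2 scale (x axis) for each tested probe of 9 lists of related genes, with a bar at each list's median and a dashed line at the median of all probes tested, 0.06. Srgn appears in 2 lists. No probe shown passed the adjusted threshold.

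Markers of other blood cells were counted in the same way. Of 10 T and NK cell genes 9 were detected on no array, and of 8 B cell genes with a probe 5 were detected on none. Among all named genes 50.5% were detected on none and 15.4% on all 7 arrays. Neutrophil maturation genes had 5 of 11 detected on all arrays, with S100a8 at -0.24 (standard error 0.19), Lcn2 at -0.17 (standard error 0.16), Ltf at -0.66 (standard error 0.26, unadjusted p 0.0322 and adjusted p 0.685 by limma) and S100a9 at 0.11 (standard error 0.32). The primary granule list had a median of -0.13 over 9 probes, with Prtn3 at -0.13 (standard error 0.18), Ctsg at -0.14 (standard error 0.17), Elane at -0.10 (standard error 0.18) and Mpo at 0.18 (standard error 0.20) at its brightest probe. Another Mpo probe detected on all arrays, ILMN_2925094, had -0.32 (standard error 0.17), with all 5 BRD7116 arrays below both DMSO arrays, and the third, ILMN_2719256, had 0.26 (standard error 0.30). The median was 0.05 over the 9 neutrophil maturation probes tested and 0.30 over the 9 monocyte and macrophage probes, with the lysozyme genes Lyz1 and Lyz2 at 0.21 (standard error 0.19) and 0.30 (standard error 0.29). Also in the monocyte and macrophage list, Ly86 had 0.83 (standard error 0.46) and Adgre1 probe ILMN_2847787 had -0.04 (standard error 0.21). Without DMSO replicate 2, Lyz2 turned to -0.15, Ly86 to -0.15 and S100a9 to -0.45. That Adgre1 probe turned to 0.08 without BRD7116 replicate 1. Hba-a1, a hemoglobin chain of red cells, was the only erythroid gene of 5 that was detected, with levels of 7.01, 7.35, 7.23, 6.83 and 7.40 with BRD7116 and 8.15 and 7.97 with DMSO. All 5 BRD7116 arrays lay below both DMSO arrays, and the difference of -0.89 (standard error 0.21) had an adjusted p of 0.685 by limma. The Lcn2 probe also lay below in this way, as did 5.12% of all probes tested. In the lists a probe each of Cebpe, Lamp2, Retnlg, Cd14 and Adgre1 lay above both DMSO arrays, as did 5.7% of all probes tested. Single genes were tested for T and NK cells (Prf1, 0.34, standard error 0.33) and for platelets (Pf4, -0.68, standard error 0.32), and the 2 tested B cell probes, both of Cd79b, had 0.09 and 0.33. Leaving out DMSO replicate 2 turned Prf1 to -0.16 and the Cd79b probes to -0.21 and -0.67. Pf4 was detected on 2 arrays, and its difference was -1.39 within chip 1 and 0.01 within chip 2. No probe of these lists passed the threshold by limma, and their part in the members' values was not tested.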

How the data were processed

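Total RNA from 7 samples, BRD7116 with 5 arrays and DMSO with 2, was hybridized to Illumina BeadChips, per the labels' protocols, and groups and chips were read from the labels. For 25697 probes the authors deposited intensities that were not normalized. A detection p-value stands beside each, per the file headers. The authors also deposited processed values that look like log2 values (median 7.52 in each column), by a method not given in the sources used here. Scanner and genome build are likewise not given.

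Intensities were background-corrected from the detection p-values (offset 16), quantile normalized and taken to log2 (neqc, limma 3.58.1, R 4.3.3). Tested were the 8613 probes called detected, at 0.05, on 2 arrays or more, each probe apart, with lmFit and eBayes, two-sided, Benjamini-Hochberg adjusted over all of them at 0.05. The offset compresses differences of dim probes. Symbols came from the platform annotation, where 23978 probes had 1 symbol, 1719 none and 0 several. Alternatives changed the background, offset, normalization, filter, prior, weights and source of the values, blocked on chip or replicate number, and left out arrays.

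The members and lists were chosen with earlier results of these data known. Of each list the text names every probe past the threshold and otherwise up to 4 tested probes with the highest mean level. Some genes and probes were picked outside that rule, after their values were seen. They are the genes named as undetected or detected on some arrays, Pik3r1, the further probes of Lat2, Mpo and Cd63 and the cell label genes. The probes of Cebpe, Lamp2, Retnlg, Cd14 and Adgre1 whose groups did not overlap were picked so too. The number of arrays limits the precision.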

Additional observations from a re-analysis of the deposited data

Results flagged for a closer look

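Among the 5 BRD7116 arrays, 1 array stood far from the other 4 for 12 of 59 probes examined, where chance would give about 2.95 for alike arrays with normal values. These arrays lay on unequal chips, so that figure is a rough guide only. In 11 of the 12 the array apart was BRD7116 replicate 1 on the dim chip. Of the members, Cpa3 probe ILMN_2991799 had a level of 5.28 there, against 5.97 to 6.09 on the other 4, and Cpa3 probe ILMN_1246690 had 6.16, against 4.83 to 5.21. The same array was high for Mcpt1 (7.02), Ear6 (6.50), Il5 (6.72), Jak2 (7.16) and Hnmt (6.38), and low for Fcgr2b (8.13), Csf2ra (5.85), Cd79b (4.87) and Prf1 (5.20). For Lamp1 the array apart was BRD7116 replicate 2, at 10.88 against 10.47 to 10.55.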

How the results depend on the processing

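Over all probes the count past an adjusted p of 0.05 in limma was 0 as reported and stayed 0 with median scaling, 1 probe per gene, array weights, chip as a block, the dim chip left out and normalized anew, and a replicate block. It was 1 with normexp, with an offset of 50, with the authors' values, with no detection filter and with detection on all 7 arrays, and 2 with no background correction and with a trend and robust prior. Without the dim chip but with the normalization over 7 arrays, a setting chosen after earlier results were seen, it was 1. Leaving out 1 array gave 0 to 634. The highest was without DMSO replicate 1, where the DMSO arm is 1 array of the dim chip that is assumed to vary like the 5 BRD7116 arrays. The cause was not tested. Whether the replicate numbers pair the arrays cannot be told from these values. Same-numbered arrays of the 2 groups lay on different chips and their deviations correlated at -0.53 and -0.31. With 2 DMSO arrays, the deviations of 1 are those of the other with the sign turned, so these correlations cannot decide it. In limma 16 probes had an unadjusted p under 0.05 with the replicate block and 1127 with chip as a block, against 577 as reported. The replicate block leaves little to estimate the spread from.

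Of 113 values of the 5 member differences under the alternatives, 102 moved by less than 1 SD between replicates. For this count the median of all probes was taken off where it was large, as with median scaling. With median scaling, where the median of all probes was 0.53, the values relative to it were 0.00 for Prg2, 0.07 for Hdc, 0.18 for Gata2, 0.36 for Cpa3 and -0.54 for Fcer1g. Hdc and Gata2 thus turned their sign, and the lower mean of Prg2 was gone. The authors' values gave -0.18, -0.13, -0.04, 0.21 and -0.11 in the same order. Cpa3 ranged from 0.21 to 0.99. Of 1042 such values of related genes 917 moved by less than 1 SD, and of 358 list medians 315. All of these counts include values that could not move. A change of filter, prior or probes per gene leaves the difference of a single probe as it is, and a change of prior leaves list medians so too. Blocking on chip and on replicate number gave the same differences, which are counted in both settings. The counts therefore overstate how little the values moved. Of the 47 probes of related genes named by the rule, 17 turned their sign on leaving out 1 array and 8 with chip as a block, 20 in either. Near background the dim chip limits detection.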
